A study of Mus musculus with 8 samples.

Results

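Mechanosensitive ion channels are membrane proteins whose opening depends on stretch, swelling or flow, and the 8 genes described here were the rows of the count table named Piezo1, Piezo2, Trpv4, Pkd1, Pkd2, Tmem63a, Tmem63b and Lrrc8a. They are 8 of 24982 genes in the table, and all 8 passed the filter on low counts, as did 13125 genes in all. RNA sequencing was done on cultured tail tendon fibroblasts of C57Bl/6 mice that kept the transcription factor gene Scx (Scx-positive, libraries 2, 3, 5 and 6) or had it deleted (Scx-deleted, libraries 2, 3, 4 and 5). The labels give 4-hydroxytamoxifen (4HT) treatment for both groups. They do not give the deleted part of Scx, a Cre driver, an age, or whether libraries came from separate animals.

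Piezo1 and Piezo2 form large trimeric cation channels opened by membrane tension, and Trpv4 is a calcium-permeable channel that responds to swelling, heat and lipid messengers. Pkd1 and Pkd2 encode the polycystins, which assemble at the primary cilium. Tmem63a and Tmem63b are relatives of the plant osmosensing OSCA channels, and Lrrc8a is the obligatory subunit of the volume-regulated anion channel, which opens when cells swell. Tendon cells are loaded in life, and calcium entry through Piezo1 is known as one of their responses to shear and stretch.

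The 8 genes did not move as a block. Piezo2, Trpv4 and Tmem63a fell in Scx-deleted cells, Tmem63b and Lrrc8a rose, and Piezo1, Pkd1 and Pkd2 did not pass the test (edgeR's quasi-likelihood test, Benjamini-Hochberg adjusted p under 0.05 over all tested genes). Thus 5 of 8 were called, 2 higher and 3 lower. The background is high: 28.5% of all tested genes were called, 14.0% higher and 14.5% lower. The ranges of the groups did not overlap for the same 5 members, against 29.1% of all tested genes (14.8% with every Scx-deleted library above and 14.3% with every one below). The median log2 change of the 8 was -0.05, beside -0.01 for all tested genes, and the median absolute log2 change was 0.27 beside 0.12.

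Gene counts ranged from 17343228 to 25180790 per library. Scx had 132 to 252 counts in each Scx-positive library and 1 to 3 in each Scx-deleted one, so it followed the labels. Levels are given as CPM, gene counts scaled by library size and TMM factors. Of 8 tendon fibroblast markers (Col1a1, Col1a2, Col3a1, Dcn, Fmod, Tnmd, Mkx and Thbs4) none was at 0. Their summed level was 9215 to 11753 CPM with Scx and 6484 to 7256 CPM without it, and 7 of 8 fell. Scx-positive library 5 stood apart from the other 3 of its group on the second principal component, which held 12.9% of the variance, and was the highest of its group for 7 of the 8 channel genes. In bulk RNA, fewer cells that express a gene and less RNA per cell cannot be told apart.

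**Figure D1:**
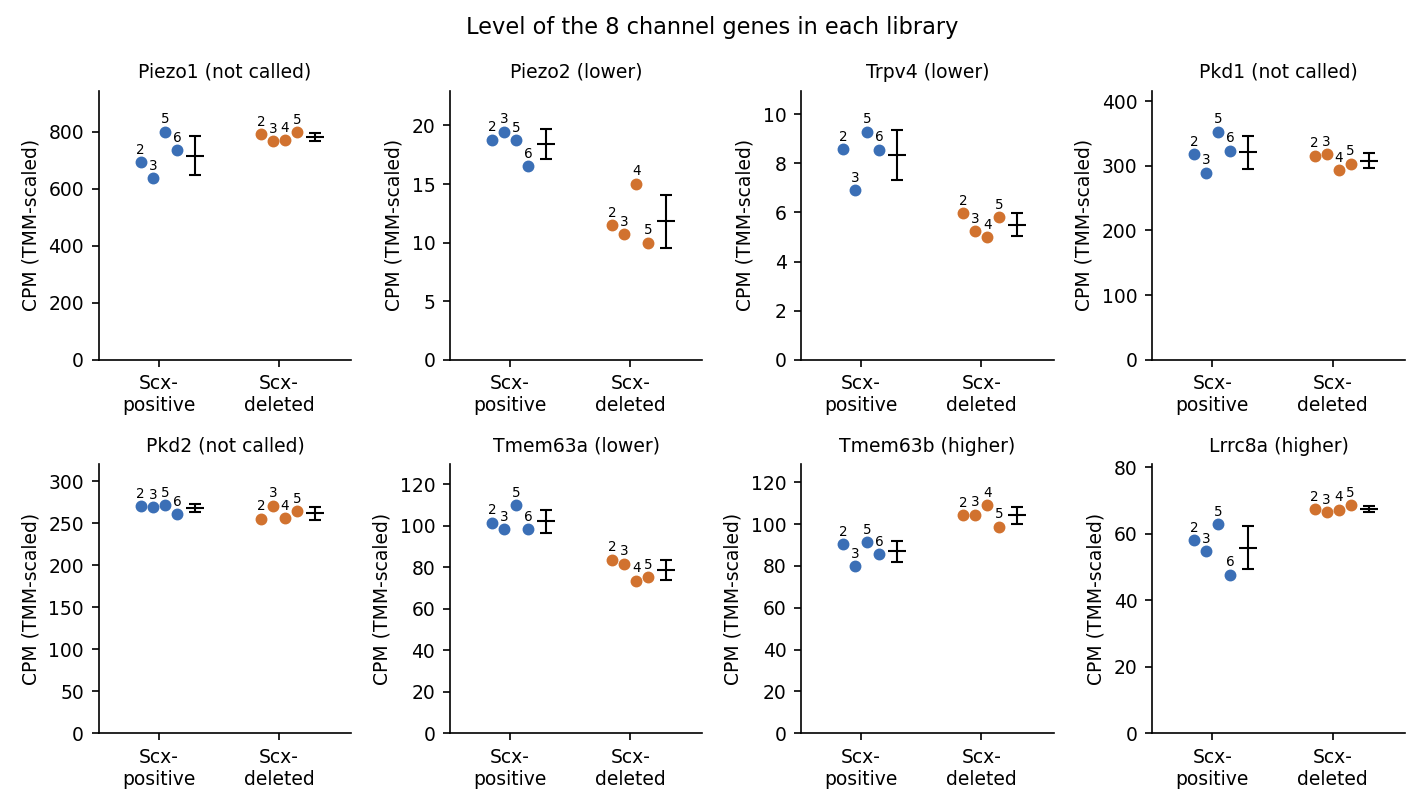
CPM of each of the 8 channel genes (y axis, from 0) in the 4 Scx-positive (blue) and 4 Scx-deleted (orange) libraries, numbered as in the labels, with mean and SD in black. Piezo2, Trpv4 and Tmem63a lie lower in every Scx-deleted library, Tmem63b and Lrrc8a lie higher, and the groups overlap for Piezo1, Pkd1 and Pkd2.

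Piezo1 was the most abundant of the 8 and was not called. Scx-positive libraries 2, 3, 5 and 6 held 694, 638, 801 and 735 CPM, and Scx-deleted libraries 2, 3, 4 and 5 held 792, 767, 770.0 and 798 CPM. The Scx-deleted values sat close together at the upper end of the wider Scx-positive range, and only Scx-positive library 5 exceeded them. The log2 change was 0.13 ± 0.06 (SE), with a 95% interval of 0.01 to 0.24 and an adjusted p of 0.112 by edgeR. Without Scx-positive library 5 the change was 0.19 and the adjusted p 0.00109, a rise. A correction for GC content and length gave 0.20 and 5.83e-05, also a rise, and the longest coding Piezo1 transcript has 59.0% GC. The authors' deposited table lists Piezo1 with a log2 change of 0.14, a standard error of 0.04 and an adjusted p of 0.00476. DESeq2 run here on the deposited counts gave 0.13 ± 0.06 (SE) and an adjusted p of 0.109, not called. In the median gene, the mean normalized signal of the authors' table was 1.26 times the mean count here. What set the authors' Piezo1 value apart was not tested.

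Piezo1 is on the minus strand of chromosome 8, from 122481698 to 122551329 of GRCm38. Exons of Ctu2 on the opposite strand cover 24.6% of its exon bases. Ctu2 had 345 to 580 counts per library and a log2 change of 0.06 ± 0.07 (SE), which did not pass the test. Since the use of strand in counting is not given in the sources used here, reads in the shared bases cannot be assigned with certainty.

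Piezo2, the channel best known from touch and position sense, had the largest absolute log2 change of the 8 with all libraries, close to that of Trpv4. Trpv4 had the larger one without Scx-positive library 3 (-0.67 against -0.62) or without Scx-deleted library 2 (-0.640 against -0.636) or 5 (-0.63 against -0.57). The Scx-positive libraries 2, 3, 5 and 6 had 18.8, 19.5, 18.8 and 16.5 CPM, and the Scx-deleted libraries 2, 3, 4 and 5 had 11.5, 10.7, 15.04 and 9.99 CPM. The groups did not overlap, although Scx-deleted library 4 came near the lowest Scx-positive value. The log2 change was -0.65 ± 0.11 (SE), a level that fell by 36.2% with a 95% interval from -45.4% to -25.4%, and the adjusted p was 0.000269 by edgeR. This absolute change was at least as large as that of 95.2% of all tested genes. The values rest on 222 to 466 counts per library, so counting error is larger here than for Piezo1. Piezo2 lies on chromosome 18, minus strand, from 63010213 to 63387183.

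Because Piezo2 is a channel of sensory nerve and associated cells, markers of nerve and glia were read beside it. The summed level of 6 such markers was 56.1 to 65.6 CPM with Scx and 54.2 to 74.3 CPM without it, with 1 of 6 lower, none higher and none at 0. Among them Sox10, a Schwann cell factor, averaged 5.99 and 6.46 CPM. Their part in the Piezo2 difference was not tested. The endothelial list, for cells in which Piezo1 is a flow sensor, summed to 68.4 to 86.5 and 49.5 to 54.2 CPM. Most of that was Tek, at 74.3 and 46.6 CPM, while the defining marker Pecam1 stood at 0.302 and 0.112 CPM. Of the 7 markers 3 were tested, 1 was higher and 1 lower, and Cdh5, Kdr, Emcn and Vwf had higher means without Scx. Kdr, the highest of these, stood at 2.18 and 3.07 CPM.

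Trpv4 also fell. The Scx-positive libraries 2, 3, 5 and 6 had 8.57, 6.90, 9.30 and 8.57 CPM, and the Scx-deleted libraries 2, 3, 4 and 5 had 5.97, 5.24, 4.99 and 5.80 CPM. All 4 Scx-deleted values lay under the lowest Scx-positive one, which was library 3. The log2 change was -0.60 ± 0.11 (SE), with a 95% interval of -0.83 to -0.38 and an adjusted p of 0.000547 by edgeR. Trpv4 had 86 to 231 counts per library, the fewest of the 8. It lies on the minus strand of chromosome 5, from 114622152 to 114658421. Trpv4 is a channel of cartilage too, and the 5 chondrocyte markers summed to 18.0 to 21.3 CPM with Scx and 20.2 to 23.3 CPM without it, with 1 higher and none lower of 3 tested. Almost all of that was Sox9, at 18.0 and 21.1 CPM. The matrix genes Col2a1 (0.584 and 0.516 CPM) and Matn3 (0.758 and 0.495 CPM) were low, and Acan and Matn1 had at most 2 counts in any library.

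**Figure D2:**
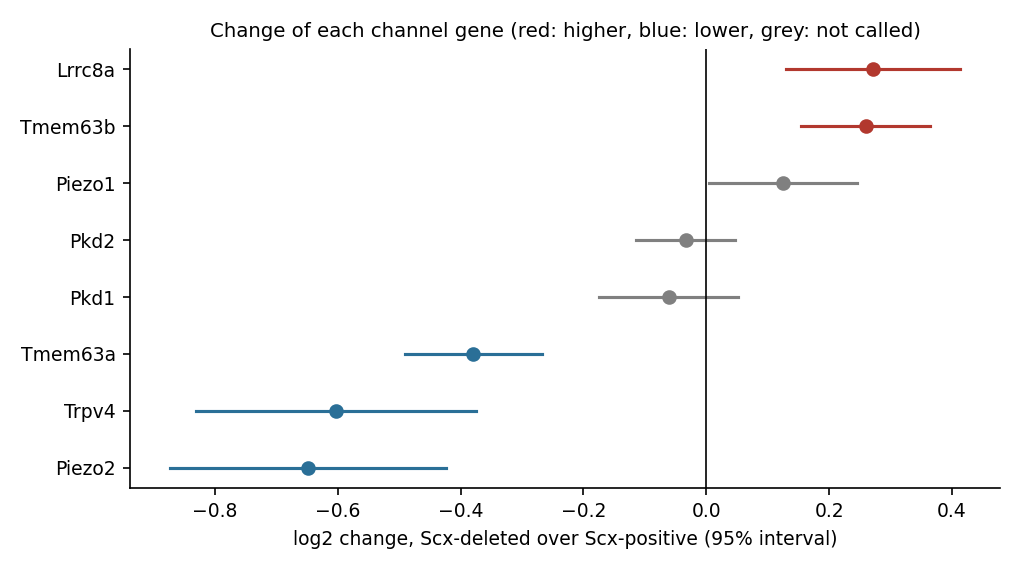
Log2 change of each channel gene, Scx-deleted over Scx-positive (x axis), with its 95% interval from the edgeR fit (lines). Called genes are red (higher) or blue (lower): Piezo2 lies at -0.65, Trpv4 at -0.60, Tmem63a at -0.38, Tmem63b at 0.26 and Lrrc8a at 0.27, and the intervals of Pkd1 and Pkd2 include 0.

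The 2 TMEM63 genes moved in opposite directions. Tmem63a went from 102, 98.6, 110.0 and 98.5 CPM in Scx-positive libraries 2, 3, 5 and 6 to 83.7, 81.7, 73.6 and 75.3 CPM without it 2, 3, 4 and 5. Every Scx-deleted library was below every Scx-positive one. The log2 change was -0.38 ± 0.05 (SE), and the adjusted p of 6.18e-05 by edgeR was the smallest of the 8. Tmem63b went the other way, from 90.4, 79.999, 91.4 and 85.7 CPM to 104, 104.5, 109 and 98.7 CPM in the same order of libraries. Here every Scx-deleted library was above every Scx-positive one, with a log2 change of 0.26 ± 0.05 (SE) and an adjusted p of 0.0010 by edgeR. Their relative Tmem63c, had at most 4 counts in any library and was not tested.

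Per kilobase of exon, Tmem63a exceeded Tmem63b in all 4 Scx-positive libraries and fell short of it in all 4 Scx-deleted ones. The ratio of Tmem63a to Tmem63b was 1.34 ± 0.0559 with Scx and 0.857 ± 0.0641 without it (SD, n = 4 each), a log2 difference of -0.64. The exact two-sided permutation test over libraries gave p = 0.0286, the smallest it can give with 4 against 4, and 0.0381 after Benjamini-Hochberg adjustment over 4 such ratios. Without any 1 library, the adjusted p of the 3 ratios that passed was 0.0571 to 0.0762. With the longest coding transcript as length, the Tmem63a to Tmem63b ratio was 1.17 ± 0.0489 and 0.750 ± 0.0561. The log2 difference and p of this ratio were then the same, but its adjusted p was 0.0571, because fewer of the 4 ratios reached the smallest p. A ratio within a library does not depend on the scaling between libraries. Tmem63a is on the plus strand of chromosome 1, from 180942344 to 180975112, and Tmem63b on the minus strand of chromosome 17, from 45660171 to 45686905. Antisense genes cover 3.50% of the exon bases of Tmem63a and 5.65% of those of Tmem63b, and Mrpl14 on the opposite strand covers another 2.08% of Tmem63b.

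Lrrc8a, the obligatory subunit of the volume-regulated anion channel, rose. The Scx-positive libraries 2, 3, 5 and 6 had 58.1, 54.7, 63.0 and 47.7 CPM, and the Scx-deleted libraries 2, 3, 4 and 5 had 67.5, 66.6, 67.3 and 68.7 CPM. The Scx-deleted libraries were close to each other and all above the spread Scx-positive ones. The log2 change was 0.27 ± 0.07 (SE), a level 20.7% higher with a 95% interval of 9.44% to 33.2%, and the adjusted p was 0.00613 by edgeR. Lrrc8a lies on the plus strand of chromosome 2, from 30237715 to 30263790. Exons of the overlapping gene model Gm28035 on the same strand cover 66.2% of its exon bases, so part of its reads could have been set aside as ambiguous; Gm28035 was not analysed here.

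The subunits that join Lrrc8a set the channel's conductance and its preference for substrates, and they went both ways. Lrrc8d, which favours uncharged osmolytes, rose by 0.14 ± 0.05 on the log2 scale (SE, adjusted p = 0.0319 by edgeR), from 58.4 ± 2.56 to 64.4 ± 1.68 CPM. Lrrc8e changed by -0.29 ± 0.11 (adjusted p = 0.0495), from 6.07 ± 0.247 to 4.94 ± 0.622 CPM. Lrrc8b and Lrrc8c had log2 changes of -0.14 and -0.10 and were not called. The calls of the partner subunits were weak: the count that rose in the family was 1, not 2, in 9 of 18 alternative fits, among them those without Scx-positive library 2 or 3 or Scx-deleted library 2, 3 or 4. The count that fell was 0, not 1, in 11 of 18, among them those without Scx-positive library 2, 3 or 6 or Scx-deleted library 4 or 5.

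The share of Lrrc8a among the subunits depended on the gene length used. Per kilobase of exon union, Lrrc8a made up 52.0% ± 3.62 of the summed Lrrc8 level with Scx and 57.4% ± 0.787 without it (SD over 4 libraries each), and Lrrc8d 18.7% and 18.8%. With the longest coding transcript as length, Lrrc8a made up 36.5% ± 3.45 and 40.3% ± 0.702 and Lrrc8d 41.8% ± 2.53 and 42.0% ± 0.903, so that Lrrc8d exceeded Lrrc8a in the mean. The ratio of Lrrc8a to the other 4 subunits together was 1.09 ± 0.155 with Scx and 1.35 ± 0.0434 without it by exon union, a log2 difference of 0.31 with groups that did not overlap (exact permutation test, p = 0.0286, adjusted 0.0381). By longest transcript the ratio was 0.579 ± 0.0849 and 0.674 ± 0.0198, the groups overlapped, and the log2 difference was 0.23 (exact permutation test, p = 0.114, adjusted 0.152). Whether Lrrc8a changed relative to the sum of its partners thus turned on the length, which sets each partner's weight in that sum. Length cannot alter the group difference of a ratio to a single partner. Lrrc8a changed by 0.27 on the log2 scale, beside 0.14 for Lrrc8d, -0.10 for Lrrc8c, -0.14 for Lrrc8b and -0.29 for Lrrc8e. Ratios to single partners were not tested.

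**Figure D3:**
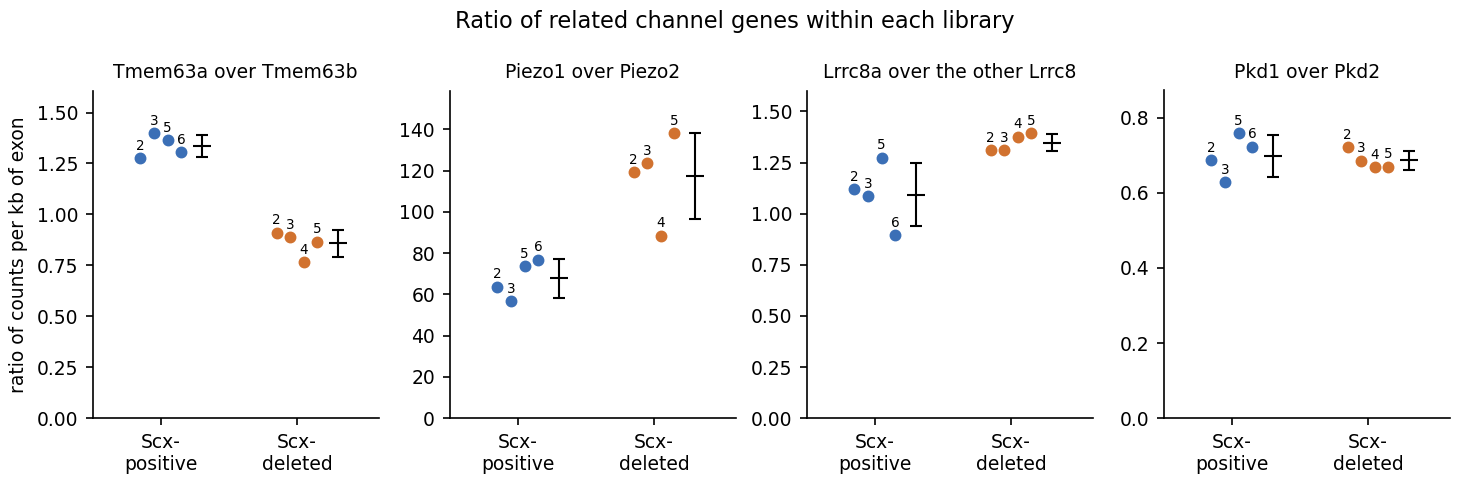
Ratio of counts per kb of exon between related channel genes (y axes, from 0) in each Scx-positive (blue) and Scx-deleted (orange) library, with mean and SD in black. The ratio of Tmem63a to Tmem63b is above 1.2 in every Scx-positive library and below 1 in every Scx-deleted one, Piezo1 over Piezo2 and Lrrc8a over its partners are higher without Scx by this length, and Pkd1 over Pkd2 overlaps between the groups.

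Neither polycystin gene passed the test. Pkd1, the large receptor-like subunit, had 318, 289, 353 and 323 CPM in Scx-positive libraries 2, 3, 5 and 6 and 316, 318, 293 and 303 CPM without it 2, 3, 4 and 5. Pkd2, the channel-forming subunit, had 270.2, 269, 272 and 261 CPM against 255, 271, 256 and 265 CPM. The groups overlapped for both. Their log2 changes were -0.06 ± 0.05 and -0.03 ± 0.04 (SE), with 95% intervals of -0.17 to 0.05 and -0.11 to 0.05. These intervals leave room for a fall of Pkd1 to -11.4% or a rise to 3.69%, and of Pkd2 to -7.58% or 3.28%. The ratio of Pkd1 to Pkd2 was 0.699 ± 0.0556 and 0.686 ± 0.0247 (SD, n = 4 each; exact permutation test, p = 0.714, adjusted 0.714).

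Pkd1 spans 24549834 to 24596508 on the plus strand of chromosome 17, where exons of Tsc2 on the opposite strand share 3.98% of its exon bases, and Pkd2 spans 104459450 to 104505819 on the plus strand of chromosome 5. The remaining polycystin genes were near the floor. Of 8 family members with a row, only Pkd1, Pkd2 and Pkhd1, which encodes fibrocystin, passed the filter, and 0 were called by edgeR. None of the 3 had an unadjusted p under 0.05, and DESeq2 and limma-voom called 0 as well.

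Set beside each other per kilobase of exon, the 8 genes spanned a wide range. In Scx-positive cells Piezo1 led at 72.2 ± 6.90 CPM per kb, followed by Pkd2 (26.4), Tmem63a (22.7), Pkd1 (18.4), Tmem63b (17.0), Lrrc8a (13.0), Trpv4 (2.04) and Piezo2 (1.07). Neighbours in that order did not overlap in range except Pkd1 and Tmem63b. In Scx-deleted cells Tmem63b followed Pkd2 at 20.4 CPM per kb, Tmem63a stood below Pkd1 at 17.5, and there the only overlapping neighbours were Pkd1 and Tmem63a. Piezo1 alone made up 41.7% ± 1.59 of the summed level of the 8 genes with Scx and 44.3% ± 0.755 without it. The ratio of Piezo1 to Piezo2 was 67.7 ± 9.29 with Scx and 117 ± 20.9 without it (SD, n = 4 each), a log2 difference of 0.78 (exact permutation test, p = 0.0286, adjusted 0.0381). Lengths were unions of all annotated exons. With the longest coding transcript in their place, the adjusted p of that ratio was 0.0571 and Piezo1 made up 36.9% ± 1.58 and 39.5% ± 0.755 of the sum. By that length Tmem63b (26.5) ranked above Pkd1 (22.6) in Scx-positive cells, and Tmem63a (23.8) ranked above Pkd1 (21.7) in Scx-deleted cells.

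**Figure D4:**
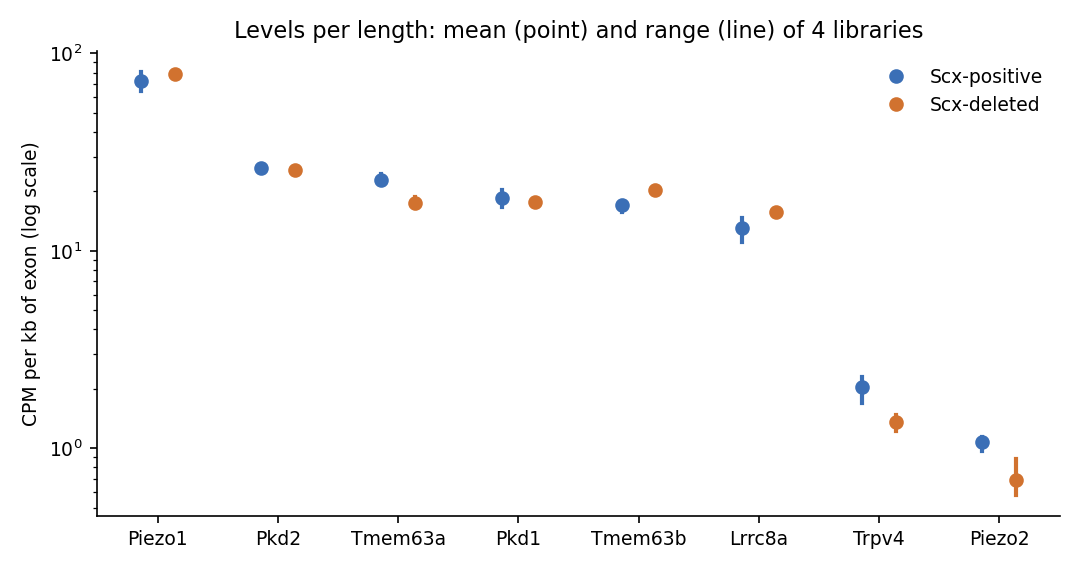
Level per kb of exon (CPM per kb, log axis) of the 8 channel genes, ordered by their Scx-positive mean, as the mean (points) and range (lines) of 4 Scx-positive (blue) and 4 Scx-deleted (orange) libraries. Piezo1 lies above all others, 5 genes lie between 10 and 30, and Trpv4 and Piezo2 lie lowest.

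Scleraxis is a basic helix-loop-helix factor, a class that binds E-boxes, so the 250 bases before the RefSeq start of each gene (GRCm38.p6) were searched for CANNTG, which reads the same on both strands. A window was matched for 7 of the 8 genes, all but Piezo2. It held an E-box in 3 of 7, Trpv4, Tmem63a and Lrrc8a, against 66.2% of 32851 windows of all genes. GC content of the 7 windows was 52.8% to 75.6%, beside a median of 52.4% in all. Such a match is a description of letters and no evidence of binding. Trpv4, which fell, Lrrc8a, which rose, and Piezo1, which was not called, are shown as examples of each outcome, 5′ to 3′ with E-boxes in capitals; the Lrrc8a stretch stops where GENCODE places its first exon.
Trpv4, minus strand, chr5:114658422-114658671: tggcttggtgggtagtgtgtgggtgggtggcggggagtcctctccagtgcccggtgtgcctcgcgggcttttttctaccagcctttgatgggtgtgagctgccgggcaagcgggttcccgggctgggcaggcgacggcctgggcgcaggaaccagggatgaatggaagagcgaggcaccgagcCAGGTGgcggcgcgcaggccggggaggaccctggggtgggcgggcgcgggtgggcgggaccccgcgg
Lrrc8a, plus strand, chr2:30237519-30237714: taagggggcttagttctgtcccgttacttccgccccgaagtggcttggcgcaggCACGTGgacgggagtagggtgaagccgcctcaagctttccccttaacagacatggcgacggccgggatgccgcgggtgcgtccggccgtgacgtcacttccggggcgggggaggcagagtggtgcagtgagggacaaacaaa
Piezo1, minus strand, chr8:122551330-122551579: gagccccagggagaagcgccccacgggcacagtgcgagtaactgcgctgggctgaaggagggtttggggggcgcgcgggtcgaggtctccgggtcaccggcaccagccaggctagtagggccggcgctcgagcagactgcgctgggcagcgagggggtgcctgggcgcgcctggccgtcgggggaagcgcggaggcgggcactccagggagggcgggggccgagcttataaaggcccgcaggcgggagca
The Trpv4 window has CAGGTG starting 67 bases before the start, the Lrrc8a window CACGTG starting 196 bases before it, and the Piezo1 window none. Tmem63a has CATGTG starting 77 bases before its RefSeq start. By GENCODE, 174 of the 250 bases of the Tmem63a window lie in exons of the gene, and this match is among them. Exons of the gene itself also cover 7 bases of the Pkd2 window, 54 of Lrrc8a, 116 of Pkd1 and all 250 of Tmem63b. Of the genes with an E-box, Trpv4 and Tmem63a fell and only Lrrc8a rose. The bases just after the RefSeq start of Lrrc8a were not found in a GENCODE transcript of the gene, unlike those of the other genes with a window.

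Of 27 other channels held to respond to stretch, 16 were tested, 2 rose and 1 fell, beside 28.5% called of all tested genes, and their median log2 change was -0.01. Kcnk10 (TREK-2, a stretch-gated potassium channel) changed by -1.10 ± 0.30 (SE, adjusted p = 0.0121 by edgeR), from 0.798 ± 0.221 to 0.367 ± 0.103 CPM, with at most 26 counts in a library. Its relative Kcnk2 (TREK-1) rose by 0.25 ± 0.09 from 9.76 ± 0.708 to 11.5 ± 1.02 CPM, and Tmem120a, a proposed and disputed pain channel, by 0.20 ± 0.05. The Kcnk2 ranges overlapped. Only 1 rose without Scx-positive library 2, 5 or 6 or Scx-deleted library 2, 4 or 5, and the count that fell was 0 without Scx-positive library 2. The scramblase and channel gene Ano6, at 426 ± 16.2 and 414 ± 8.76 CPM, and Trpm7, at 148 ± 14.2 and 152 ± 10.5 CPM, did not pass the test. Of the TMC family, relatives of the hair-cell transduction channel, only Tmc4, Tmc6, Tmc7 and Tmc8 were tested and none was called, although the count that fell in the joint TMEM63 and TMC list was 2 without Scx-positive library 3, against 1. Tmc1, Tmc2, Trpc5 and Scnn1b had 0 counts in all 8 libraries, which allows up to 3 counts, or 0.174 CPM in the shallowest library (counting error only).

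Partners of these channels went both ways, with 3 higher and 5 lower of 13 tested and a median log2 change of -0.03. Thus 61.5% were called, beside 28.5% of all tested genes. Stom, which encodes the membrane scaffold stomatin, rose by 0.58 ± 0.04 on the log2 scale (SE, adjusted p = 3.50e-08 by edgeR), from 260.4 ± 7.203 to 389 ± 6.54 CPM. Tmem33, whose product binds polycystin-2, rose by 0.28. Of the caveolar coat genes Cavin2 changed by -0.42, Cavin3 by -0.54 and Cavin1 by -0.16. Mdfi, a relative of the Piezo auxiliary subunit gene Mdfic, changed by -0.69 ± 0.18, from 2.75 ± 0.520 to 1.73 ± 0.292 CPM, while Mdfic itself had a log2 change of 0.11 and was not called. Without Scx-deleted library 3 or 5 the count that fell was 3, and with the GC and length correction the count that rose was 5.

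Of 20 primary cilium genes, the compartment where polycystins act, 1 rose and 2 fell, with a median log2 change of -0.05. That is 15% called, beside 28.5% of all tested genes. Kif3b, a motor of ciliary transport, rose by 0.20, Ift140 changed by -0.19 and Tmem67, which encodes meckelin, by -0.22. The count that fell was 0 without Scx-positive library 2 or Scx-deleted library 5, 1 without Scx-deleted library 2, and 4 without Scx-positive library 5. Ift88, another transport gene, stood at 17.1 ± 1.02 and 16.7 ± 0.781 CPM and did not pass the test.

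Genes that handle the calcium these channels admit were split. Of 21 tested 6 rose and 5 fell (52.4% called, beside 28.5% of all tested genes), with a median log2 change of -0.02. The T-type channel gene Cacna1g changed by -1.28 ± 0.20 (SE, adjusted p = 0.000154 by edgeR), from 4.77 ± 0.901 to 1.95 ± 0.642 CPM. Atp2b4, a plasma membrane pump gene, changed by -0.64 ± 0.06, from 25.9 ± 0.617 to 16.6 ± 1.02 CPM. Atp2b1, another such gene, stood at 199.7 ± 15.5 and 197.3 ± 7.49 CPM and did not pass the test. Both store sensors fell, Stim1 by 0.24 and Stim2 by 0.28 on the log2 scale, while the mitochondrial exchanger gene Slc8b1 rose by 0.33 and the store release channel gene Itpr3 by 0.22. Without Scx-deleted library 5 the count that rose was 3. Among calmodulin, calcineurin and NFAT genes 1 of 18 rose and 4 fell, with a median of -0.07. Thus 27.8% were called, near the 28.5% of all tested genes. All 3 catalytic subunits of calcineurin, the calcium-dependent phosphatase, fell: Ppp3ca by 0.17, Ppp3cb by 0.27 and Ppp3cc by 0.28 on the log2 scale. Nfatc3 changed by -0.14 and Camk2d rose by 0.16. The count that fell was 2 without Scx-positive library 2, and 3 rose without Scx-positive library 5 and 2 without Scx-deleted library 4.

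Genes of cell volume control had the only list median above 0 among the 9 lists, at 0.06. Of 22 tested 9 were higher and 3 lower, or 54.5% called, beside 28.5% of all tested genes. The list includes transporters of organic osmolytes, solutes that cells take up under hypertonic conditions. The level of Slc5a3, the myo-inositol transporter gene, went from 99.8 ± 17.6 to 209 ± 28.3 CPM, and it rose by 1.06 ± 0.11 on the log2 scale (SE, adjusted p = 2.91e-06 by edgeR). The betaine transporter gene Slc6a12 rose by 1.31 ± 0.21 from 2.95 ± 0.896 to 7.36 ± 2.14 CPM, and the taurine transporter gene Slc6a6 by 0.26. The water channel gene Aqp5 rose by 1.01 ± 0.12 from 9.52 ± 0.433 to 19.2 ± 4.38 CPM, and Atp1b1, a subunit of the sodium pump, by 0.80. Aqp1, a water channel gene of higher level, changed by -0.13 ± 0.04 (SE, adjusted p = 0.0269 by edgeR), from 265 ± 8.51 to 243 ± 8.67 CPM. The kinase gene Wnk1, which tunes chloride transport, changed by -0.24. Nfat5, the transcription factor that responds to hypertonic stress, stood at 323 ± 29.7 and 314 ± 18.0 CPM and did not pass the test.

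**Figure D5:**
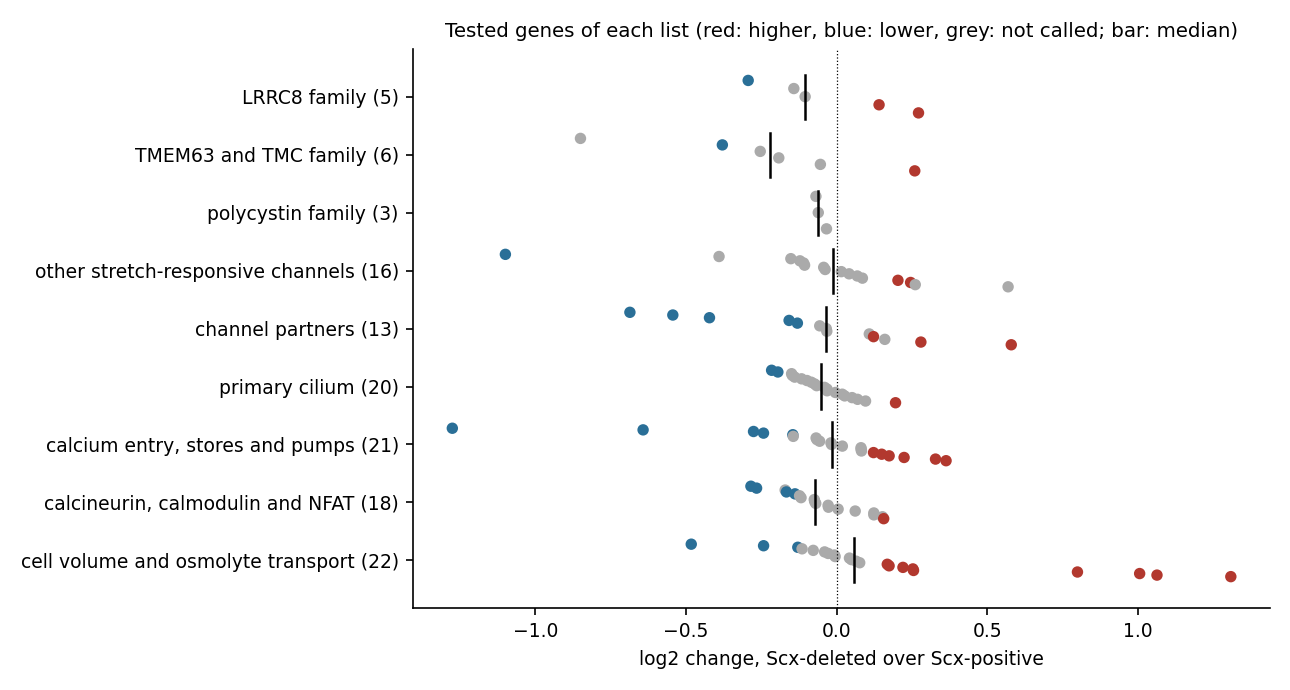
Log2 change, Scx-deleted over Scx-positive (x axis), of every tested gene in 9 lists of channel families, partners and downstream genes, with the number tested in brackets, called genes in colour and the list median as a bar. Most lists hold genes on both sides of 0, and the largest rises are in the cell volume and osmolyte list.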

How the data were processed

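RNA was measured in 8 libraries, 4 per genotype in the labels. The submitters' processing notes name the build mm10 and the tools FastQC, STAR and DESeq2. What each did, its version, the counter, the annotation and the strand setting were not given in the sources used here. The authors deposited raw counts per gene symbol. Rows for reads in no feature (7.44% to 8.67% of counts) and ambiguous reads (0.490% to 0.567%) were left out. The ambiguous share was 0.490% to 0.506% in Scx-positive and 0.539% to 0.567% in Scx-deleted libraries, so the groups did not overlap. Its bearing on members with overlapping gene models was not tested. The authors' deposited comparison table gives, per the file headers, a mean normalized signal, a log2 fold change, scores (its standard error and a test statistic), a p-value and an adjusted p-value. Its sign matched these fits for 3743 of 3743 shared called genes, which set its direction. It was used only for Piezo1 and for its mean signal. Of its columns, 2 that name no genotype were not used.

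The test was edgeR 4.0.16 under R 4.3.3 on the raw counts (filterByExpr with a minimum count of 10 and total of 15, TMM factors, quasi-likelihood F test, group as the only term, an adjusted p threshold of 0.05 by Benjamini-Hochberg). A standard error is the log2 change over the square root of F, and intervals use the fit's degrees of freedom. GENCODE mouse release 21 (GRCm38) placed 98.0% of symbols. No lists were tested as sets. Alternatives were other scaling and filters, DESeq2 1.42.0, limma 3.58.1 (voom), a replicate block, numbers 2, 3 and 5 alone, a GC and length correction, a threshold of 0.01 and each library left out. Ratios and shares with the longest coding transcript as length were added after the data were seen. Simulated counts of 13049 genes for this comparison held 50 genes each planted at 1.25-fold, 1.5-fold and 2-fold and 48 at 0.5-fold. Of these 62%, 90.0%, 100.0% and 93.8% were recovered, and 8.06% of calls were false. The planted genes were a far smaller part than the 28.5% called in the data, so these rates need not hold there. Within groups no 2 libraries agreed within sampling noise. The labels do not tie libraries to separate animals or cultures. The p-values therefore set group differences only against the spread of these libraries, and that spread may be technical.

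The members and lists were chosen with earlier results of these data known. Named genes were all members, Scx and the Lrrc8 and Tmem63 paralogues. Added to these were up to 6 called genes of smallest p per list (all tested genes of lists of 8 or fewer). The 5 genes whose log2 CPM correlated best with the called member of largest change were named too. Aqp1, which was called, and other genes named as not called were chosen after their values were seen.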

Additional observations from a re-analysis of the deposited data

How the results depend on the processing

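The calls and directions of Piezo2, Trpv4, Tmem63a, Tmem63b and Lrrc8a were the same in all 18 alternative fits, with log2 changes of -0.82 to -0.57, -0.67 to -0.54, -0.41 to -0.34, 0.23 to 0.29 and 0.20 to 0.34. Pkd1 and Pkd2 were called in none of them. Piezo1 ranged from 0.08 to 0.20 and was called in 2, without Scx-positive library 5 and with the GC and length correction, which made 3 members higher; the cause was not tested. Over all genes, the GC and length correction gave 2858 higher, a threshold of 0.01 gave 1191 higher and 1143 lower with fewer genes by construction, and numbers 2, 3 and 5 without a block gave 1239 lower with fewer samples. Leaving out 1 library gave 1447 to 2409 higher and 1427 to 2310 lower. With 1 library left out, the log2 difference of the ratio was -0.67 to -0.59 for Tmem63a over Tmem63b, 0.70 to 0.91 for Piezo1 over Piezo2 and 0.22 to 0.39 for Lrrc8a over its partners. Their adjusted exact permutation p was then 0.0571 to 0.0762, with fewer splits to draw on. For Pkd1 over Pkd2 the difference was -0.074 to 0.017, above 0 without Scx-positive library 5. With the longest coding transcript as length, chosen for the ratios after seeing the data, the difference was -0.64 for Tmem63a over Tmem63b and 0.78 for Piezo1 over Piezo2 (adjusted exact permutation p = 0.0571 each) and 0.23 for Lrrc8a over its partners (0.152). By that length, levels in Scx-positive cells were 87.2 CPM per kb for Piezo1, 1.71 for Piezo2, 2.58 for Trpv4, 22.6 for Pkd1, 51.3 for Pkd2, 30.9 for Tmem63a and 26.5 for Tmem63b.

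Numbers 2, 3 and 5 occur in both groups, but deviations of same-numbered libraries correlated at -0.06, 0.16 and 0.06, so the numbers were not taken as pairs. With the replicate block these 6 libraries gave 1585 higher and 1616 lower, against 1289 and 1239 without it, and not every library correlated best with its own number. The block changed no member's call: Piezo1 had an adjusted p of 0.0538 by edgeR and a log2 change of 0.15 there.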

Other observations

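The 5 genes whose log2 CPM followed Piezo2 most closely over the 8 libraries, among 11652 compared, were Cdh11, Palmd, Rbm43, Cdkn1b and Ints7, with Pearson r of 0.98, 0.97, 0.97, 0.97 and 0.97. Since Piezo2 differs between the groups, any gene with a like group difference scores high. After the group means were removed the closest were Phf5a, Nme3, Plp2, Pank4 and Dnajc12, with r of 0.99, 0.99, 0.97, 0.96 and 0.93, and the lists shared no gene. These values describe 8 libraries that share depth and preparation, and with so many genes compared some reach such values by their number alone.

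Macrophage and leukocyte markers summed to 5.46 to 7.88 CPM in Scx-positive and 8.14 to 10.6 CPM in Scx-deleted libraries, with 2 of 3 tested higher, and Ptprc and Adgre1 had at most 2 counts in any library. Mural markers summed to 639 to 763 and 863 to 878 CPM, with 2 of 4 tested higher and 1 lower. Almost all of that came from Cspg4 (271 and 365 CPM) and Pdgfrb (428 and 503 CPM). Lower means without Scx were seen for Rgs5 (1.29 and 0.668 CPM), Abcc9 (0.605 and 0.354 CPM) and Kcnj8 (0.379 and 0.315 CPM). Skeletal muscle markers summed to 34.7 to 40.8 and 26.8 to 36.2 CPM, with 1 of 2 tested lower and Myod1 at 0, and keratinocyte markers to 85.7 to 88.2 and 85.1 to 88.7 CPM, almost all from Dsp, with Krt1 at 0.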
